A study of Mus musculus with 2 samples.

Results

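The regions described here are 211 short stretches of the mouse autosomes, each 1 or 2 kb wide, at which reads of both MTF2 and JARID2 were concentrated in embryonic stem (ES) cells. They were chosen from the reads themselves. JARID2 reads were counted in 1 kb bins of chromosomes 1 to 19, and each count was divided by the typical count of a bin of its chromosome to give a fold. Bins at a JARID2 fold of 5 or more were joined into 25788 blocks, gaps of up to 1 kb included. Of these blocks 21958 were 1 to 2 kb wide, and 21788 of the narrow ones had under 3 file lines per kept read in both libraries, where a kept read is 1 line for each distinct chromosome, strand and 5′ end. The 211 sites are the narrow blocks under that repeat level with at least 1 bin at an MTF2 fold of 5 or more. A further 35 narrow blocks met both folds but not the repeat level and are not among them. The number depends on the processing: it was 322 at a fold of 4, 92 at a fold of 8, 338 with 500 bp bins and 337 with MTF2 reads of a deposited score above 0.

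The series held 1 MTF2 and 1 JARID2 ChIP-seq library, in which DNA fragments recovered with an antibody to the protein are sequenced. Both came from 129SvJae x C57BL/6 ES cells, cultured in medium with serum and ESGRO, between passages 10 and 15 and grown without feeder cells for about 2 to 3 passages before harvest. The groups therefore share the strain, the cell type and the culture, and differ in the antibody alone as far as the labels say. The MTF2 file gave 8946204 kept reads and the JARID2 file 12900993, so that a typical autosomal bin held 3.39 MTF2 reads and 4.25 JARID2 reads and a fold of 5 took about 17 and 22 reads. There was no replicate and no input library among the samples, so no difference between the factors was tested, and reads that any library of these cells would collect at a site cannot be told apart from reads recovered by an antibody. The labelled cell type could not be checked against transcripts, because the reads are from ChIP.

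Polycomb repressive complex 2 (PRC2) methylates lysine 27 of histone H3, a mark of silenced developmental genes, and in ES cells it sits mainly over CpG-rich promoters. Its catalytic core does not choose those places alone. MTF2, a Polycomb-like protein, binds unmethylated CpG-rich DNA and forms one version of the complex, while JARID2, a Jumonji-family protein without demethylase activity, binds nucleosomes and DNA and forms another. At well-known target genes both are found in broad domains.

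Sites are named by position in the coordinates of the deposited files, counted from 1. Their genome build is not given in the sources used here, and the genes, exons and base sequence at the sites were not analysed here.

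Sharing was rare among narrow JARID2 blocks and frequent among wide ones. The 211 sites were 0.968% of the 21788 narrow blocks (95% Clopper-Pearson interval 0.843% to 1.11%). Among the 3823 JARID2 blocks of 3 kb or wider under the same repeat level, 20.1% held an MTF2 bin at the threshold. Over all 2382450 bins with a read in either library, 0.178% were at an MTF2 fold of 5 or more and 1.88% at such a JARID2 fold. A wider block has more bins that can reach the threshold, so the shares of narrow and wide blocks are not the same measure. Because the choice used both folds, the levels of the sites that follow are a description.

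Among the sites 109 were 1 kb and 102 were 2 kb wide. Most were modest in MTF2 and spread widely in JARID2. The MTF2 reads in a site ran from 16 to 410 with a median of 30, and the JARID2 reads from 18 to 734 with a median of 83. Averaged over the width of the site, the median MTF2 fold was 6.05 (order-statistic interval 5.55 to 6.61) and the median JARID2 fold 14.8 (10.7 to 18.8). In the highest MTF2 bin, 73 sites lay between 5-fold and 6-fold, 63 between 6-fold and 8-fold, 35 between 8-fold and 10-fold and 40 above that. In the highest JARID2 bin, 77 sites lay between 20-fold and 50-fold and 18 were higher still. MTF2 was thus under 8-fold at most sites, and JARID2 at far fewer. The log2 folds of the factors had a Pearson's r of -0.0151 over the 211 sites (Spearman's rho of the folds -0.147), both descriptions of sites selected on both axes.

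**Figure D1:**
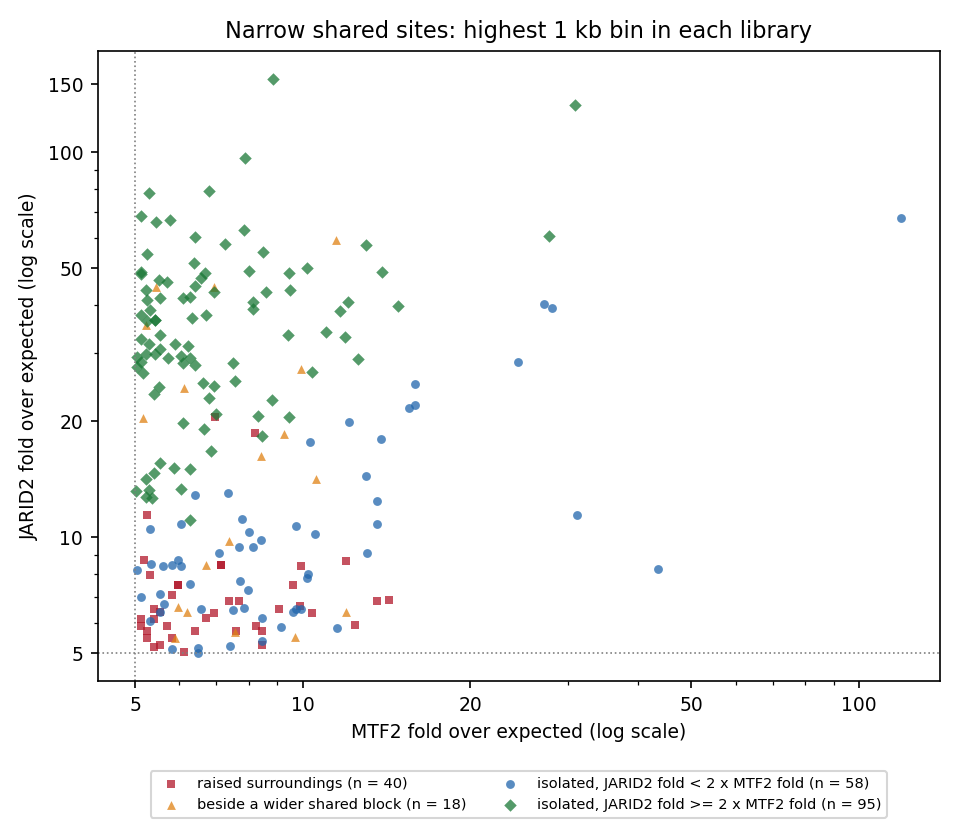
MTF2 fold (x axis) against JARID2 fold (y axis) in the highest bin of each of the 211 sites, with both axes on a log scale and dotted lines at 5-fold; each point is 1 site, coloured by its setting. The 40 sites in raised surroundings lie between 5.02-fold and 20.5-fold in JARID2, while isolated sites reach 155-fold.

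The balance between the factors varied over more than 2 orders of magnitude. Scaled to the depth of the libraries, the JARID2 reads of a site were a median of 1.76 times its MTF2 reads (1.29 to 2.23), with extremes of 0.128 and 21.1. The median was 3.44 with a local background and 3.45 with 500 bp bins, which choose partly different sites. The JARID2 fold was below the MTF2 fold at 48 sites, was 1 to 2 times it at 57, 2 to 4 times at 38, 4 to 8 times at 50 and 8 times or more at 18. The sites therefore range from MTF2-weighted to strongly JARID2-weighted.

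Levels and blocks outside the sites divided them by their surroundings. A site was placed in raised surroundings when the median bin 5 to 50 kb away was at 2-fold or more in both libraries, beside a wider shared block when, failing that, a JARID2 block of 3 kb or wider with an MTF2 bin at the threshold lay within 10 kb, and was called isolated otherwise. By this division, set after the data were seen, 40 sites had raised surroundings, 18 lay beside a wider shared block and 153 were isolated. Raised surroundings were found at 18.96% of the sites (13.9% to 24.9%), against 0.422% of the 21577 narrow JARID2 blocks without MTF2, 10.0% of the 480 shared blocks of 3 to 7 kb and 9.34% of the 289 shared blocks of 8 kb or more. The interval treats the sites as independent and is too narrow, because 36 of the 40 lay in 5 groups of neighbouring sites that share their surroundings. The surroundings entered the rule only indirectly. Folds are taken over the whole chromosome, so a bin in a raised stretch reaches 5-fold more easily. The narrow blocks without MTF2 were also held below that MTF2 fold. The share at the sites was above that of all 3 other kinds of block, but it is not independent of the choice. It was 31.5% when gaps were not merged, and 1.78% when the expected count was taken from the bins around each site, which by its construction divides out raised surroundings.

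At the 40 sites in raised surroundings JARID2 was low and near MTF2, while MTF2 was much as at isolated sites. The median folds at isolated sites were 6.04 for MTF2 and 21.5 for JARID2. The 40 sites had a median MTF2 fold of 6.05 (5.42 to 7.39) and a median JARID2 fold of 6.34 (5.88 to 6.72). Their depth-scaled ratio was 0.836 (0.788 to 1.005). The bins 1 to 5 kb outside them had a median MTF2 fold of 4.70 (4.23 to 5.72), against 1.25 at isolated sites, and at 38 of the 40 sites at least 1 of those bins reached an MTF2 fold of 5. Even 5 to 50 kb away the median levels were 3.65-fold for MTF2 and 3.07-fold for JARID2. These sites were thus the higher bins of long stretches with many reads in both libraries. At them the file lines per kept read had medians of 1.04 for MTF2 and 1.05 for JARID2.

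**Figure D2:**
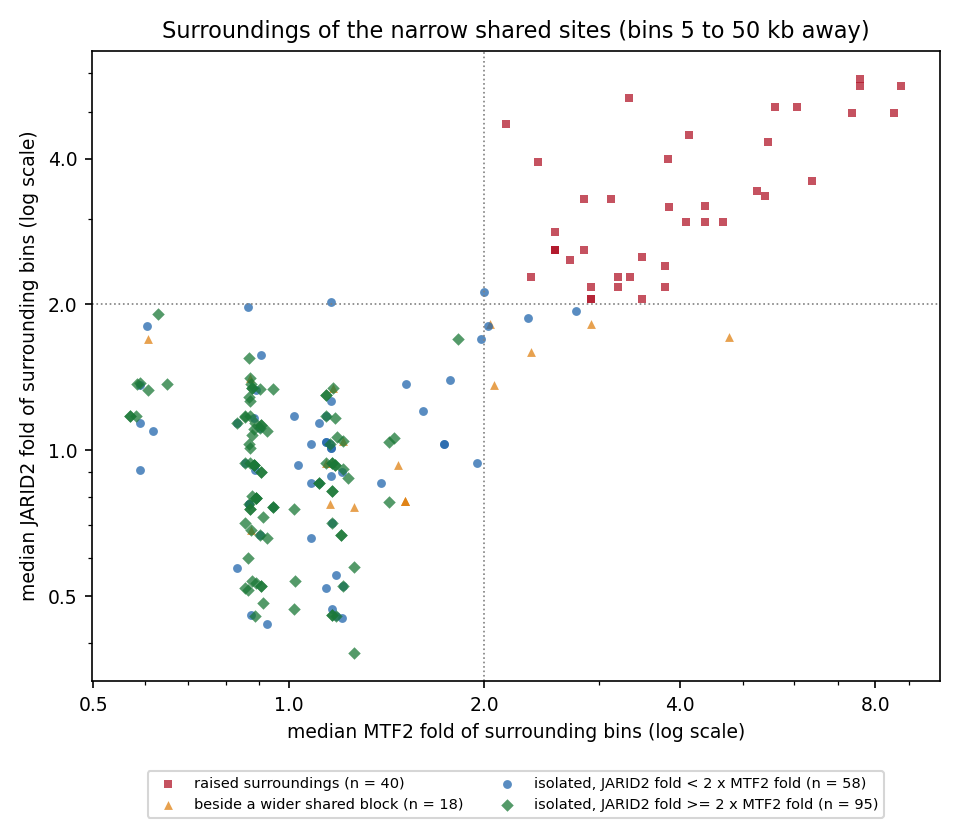
Median MTF2 fold (x axis) against median JARID2 fold (y axis) of the bins 5 to 50 kb from each of the 211 sites, on log scales, with 1 point per site coloured by its setting and dotted lines at 2-fold. The 40 sites in raised surroundings, which the colour defines by 2-fold or more in both libraries, extend to 8.77-fold (MTF2) and 5.83-fold (JARID2), and the isolated sites gather around 1-fold.

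Most of those 40 sites came from a handful of places. When sites up to 500 kb apart were chained, 134 stood alone, and 5 chains of 4 or more sites held 46 sites, or 21.8% of all, 36 of the 40 in raised surroundings among them. The longest ran over 1664 kb of chromosome 4, from 144706001 to 146370000, with 18 sites, a median MTF2 fold of 3.21 and a median JARID2 fold of 2.28 over all of its bins. On chromosome 8 a chain of 648 kb from 19772001 to 20420000 held 11 sites, with medians of 4.76 and 2.91. Both chains also had 149 bins without any read in either library. On chromosome 5 the 281 kb from 14935001 to 15216000 held 6 sites with medians of 5.47 for MTF2 and 4.55 for JARID2. On chromosome 1 the 253 kb from 84954001 to 85207000 held 7 sites (3.99 and 3.77) and the 63 kb from 87227001 to 87290000 held 4 sites (2.57 and 2.82). In each chain the typical bin, and not the sites alone, was more than 2-fold above the chromosome in both libraries.

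The chains added to the number of sites on chromosomes 1, 4, 5 and 8. The number of sites ran from 0.0317 per Mb of covered bins on chromosome 16, with 3 sites, to 0.166 per Mb on chromosome 4, with 25 sites, of which 7 were isolated. Chromosome 19, without a chain, had 0.121 per Mb with all of its 7 sites isolated. Over all sites the median distance to the nearest other site was 2262 kb (1239 to 2974), but 56 sites (26.5%, 20.7% to 33.0%) had another within 100 kb.

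The 3 sites closest to one another lay on chromosome 8 in the chain above, at 20203001 to 20204000, 20208001 to 20210000 and 20219001 to 20220000. They held 45, 45 and 46 MTF2 reads and 38, 83 and 38 JARID2 reads. The 3 had similar MTF2 counts, and their flanks 1 to 5 kb away were as high as 6.80-fold, 7.29-fold and 7.03-fold in MTF2, although the median bin farther out did not reach 2-fold in both libraries. The lowest JARID2 to MTF2 ratios also included sites of such chains, at chromosome 8 from 20414001 to 20416000 (126 MTF2 reads, 13.6-fold, and 78 JARID2 reads, 6.68-fold) and at chromosome 5 from 14965001 to 14966000 (42 reads, 12.4-fold, and 26 reads, 5.92-fold), each with a ratio of 0.429.

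The sites beside a wider shared block lay near JARID2 blocks of 3 kb or wider that also held an MTF2 bin at the threshold. In all, 38 sites (18.01%, 13.1% to 23.9%) lay within 10 kb of such a block, and 20 of them also had raised surroundings. The share was 1.05% of the narrow JARID2 blocks without MTF2, which were held below the MTF2 threshold. Among shared blocks of 3 to 7 kb, 16.25% lay that near another shared block of 3 kb or wider. Among those of 8 kb or more it was 23.9%, so the share at the sites lay between these. The other 18 of the 38 sites had a median MTF2 fold of 6.16 and a median JARID2 fold of 14.2. Some of the 18 lay in the chains of chromosomes 4, 5 and 8, beside blocks with less JARID2. On chromosome 4 the site from 144706001 lay 4 kb from a block at 5.25-fold MTF2 and 5.93-fold JARID2. On chromosome 8 the site from 20009001 lay 5 kb from a block at 14.4-fold and 10.1-fold. Others lay beside blocks higher in JARID2. On chromosome 11 the site from 18926001 to 18928000 held 35 MTF2 reads (5.51-fold) and 382 JARID2 reads (36.5-fold), 4 kb past the end of a 9 kb block at 7.17-fold and 25.6-fold. On chromosome 12 the block of 6 kb from 50256001 to 50262000, at 4.74-fold and 41.4-fold, had 3 such sites around it. They had 10.6-fold, 9.07-fold and 9.68-fold MTF2 and 14.1-fold, 34.7-fold and 5.50-fold JARID2. These levels are not like for like with those of the block. Its folds are averages over 6 kb, while each site is 1 to 2 kb wide and was chosen for an MTF2 bin at 5-fold or more. On chromosome 2 the site from 9813001 to 9815000 (6.11-fold MTF2, 14.4-fold JARID2) lay 3 kb from a block of 20 kb at 6.50-fold and 28.3-fold.

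Around most of the 153 isolated sites the flanks were low. By definition the median bin 5 to 50 kb away was below 2-fold in at least 1 library. The median flank 1 to 5 kb away was at 1.25-fold for MTF2 and at 1.47-fold for JARID2, and 5 to 50 kb away the medians were 0.926 and 0.941. An MTF2 bin at the threshold was found 1 to 5 kb away from 24 of them (15.7%), against 36.5% of all 211 sites and 0.876% of the narrow JARID2 blocks without MTF2. The share was 19.6% for shared blocks of 3 to 7 kb and 25.6% for those of 8 kb or more. The JARID2 fold was under 2 times the MTF2 fold at 58 isolated sites, here called low-ratio, and 2 times or more at 95, called high-ratio. The 58 had a median MTF2 fold of 8.003 (6.98 to 9.73) and JARID2 fold of 8.11, and the 95 had 5.16 and 27.7 (24.8 to 31.5). This split uses both libraries at the sites, so these 4 medians describe it.

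The highest MTF2 folds were all at isolated sites. The highest of all lay on chromosome 10 from 7229001 to 7230000, with 410 MTF2 reads, 209 of them on the plus strand (119-fold, exact Poisson interval 108 to 131), and 267 JARID2 reads (67.4-fold, 59.6 to 76.0). On chromosome 3 the site from 96130001 to 96131000 had 157 MTF2 reads (43.6-fold) and 29 JARID2 reads (8.27-fold), the lowest ratio of any site at 0.128 (0.0831 to 0.191). The site on chromosome 6 from 3150001 to 3152000 was high in both, with 144 MTF2 reads and 734 JARID2 reads, and its highest bin was at 30.8-fold and 132-fold. The other 5 of the 8 highest ranged from 24.4-fold to 31.2-fold MTF2 in their highest bin. Averaged over the bins 1 to 5 kb away, the MTF2 level of these 8 sites ran from 0.581-fold to 1.89-fold. The highest of those bins was at 5.28-fold for the chromosome 3 site. It was at 2.72-fold or less for the others.

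Strand balance set some of them apart. At chromosome 2 from 91894001 to 91895000, 6 of 84 MTF2 reads and 26 of 121 JARID2 reads were on the plus strand. At chromosome 17 from 67646001 to 67647000 it was 16 of 91 MTF2 reads and 64 of 180 JARID2 reads. Over all sites, more than 75% of reads were on 1 strand at 20 sites for MTF2 (9.48%) and 24 for JARID2 (11.4%). In shared blocks of 3 to 7 kb the shares were 0.833% and 0.625%. In narrow JARID2 blocks without MTF2 the JARID2 share was 1.48%, while the MTF2 share there, 56.9%, rests on few reads. The highest MTF2 bin reached the fold of 5 on each strand separately at 130 sites (61.6%, 54.7% to 68.2%), against 69.7% of all MTF2 bins at that fold.

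Of the 8 highest JARID2 folds, those on chromosome 6 from 3150001 and chromosome 10 from 7229001 were at sites already described among the 8 highest in MTF2. The other 6 were at high-ratio sites, as was that on chromosome 6 from 3150001. At chromosome 16 from 11057001 to 11058000, 560 JARID2 reads (155-fold, 142 to 168) stood beside 30 MTF2 reads (8.85-fold, 5.97 to 12.6), with 2.84 file lines per kept JARID2 read. Chromosome 14 from 68127001 to 68129000 had 464 JARID2 reads (96.6-fold in its highest bin) and 37 MTF2 reads (7.89-fold). The most JARID2-weighted site lay on chromosome 9 from 14501001 to 14503000, where 638 JARID2 reads and 21 MTF2 reads gave a depth-scaled ratio of 21.1 (13.7 to 34.3). Next in ratio after the sites of chromosomes 9 and 16 came chromosome 2 from 119449001 to 119451000 (495 and 30 reads, ratio 11.4) and chromosome 11 from 69156001 to 69158000 (294 and 19 reads, ratio 10.7). At the last 4 of these positions the file lines per kept JARID2 read were between 1.15 and 1.27.

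At the threshold the sites passed without a gap into blocks just short of it. Just inside were chromosome 5 from 78006001 to 78007000 (17 MTF2 reads, 5.02-fold) and, on chromosome 11, 16157001 to 16158000 and 62562001 to 62563000 (16 reads and 5.04-fold each). Just outside were 3 blocks of chromosome 8, starting at 19793001, 60302001 and 72497001, each with 23 MTF2 reads and 4.98-fold. Poisson intervals of all 6 spanned the threshold, for example 2.93 to 8.04 for the site on chromosome 5. The count needed differs between chromosomes because each is scaled to its own bins.

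The spacing of reads on opposite strands separated the isolated sites further. In ChIP-seq the reads of a bound fragment start at its ends and point inwards. Pairs of opposite-strand 5′ ends thus pile up at a spacing near the fragment length. That length was taken as 140 bp (MTF2) and 200 bp (JARID2), from the read shifts of 70 bp and 100 bp. The most pairs lay at 157 bp and 193 bp in the narrow JARID2 blocks without MTF2. In the shared blocks of 8 kb or more they lay at 156 bp and 231 bp. Pairs were counted within 10 bp of each length, so counts at the fragment length can miss these peaks. Quality measures of ChIP-seq also track a pile-up at the read length, here 52 bp and 36 bp, as the phantom peak. Over the 211 sites the spacing with the most pairs was 51 bp in the MTF2 reads and 34 bp in the JARID2 reads. More MTF2 pairs were at the read length than at the fragment length at 129 of the 194 sites with unequal numbers (66.5%, 59.4% to 73.1%), against 44.4% of the narrow JARID2 blocks without MTF2 and 35.0% of the shared blocks of 8 kb or more. For JARID2 it was 111 of 204 sites (54.4%, 47.3% to 61.4%), against 25.6% and 6.92%. The read length was favoured more often at the sites than in those other blocks in both libraries, but this rested partly on sites with repeat lines. At the 142 sites where under 20% of the file lines in both libraries repeated a kept read, the shares were 52.8% (43.7% to 61.7%) for MTF2, an interval that includes the share of the narrow blocks, and 35.6% (27.5% to 44.2%) for JARID2.

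**Figure D3:**
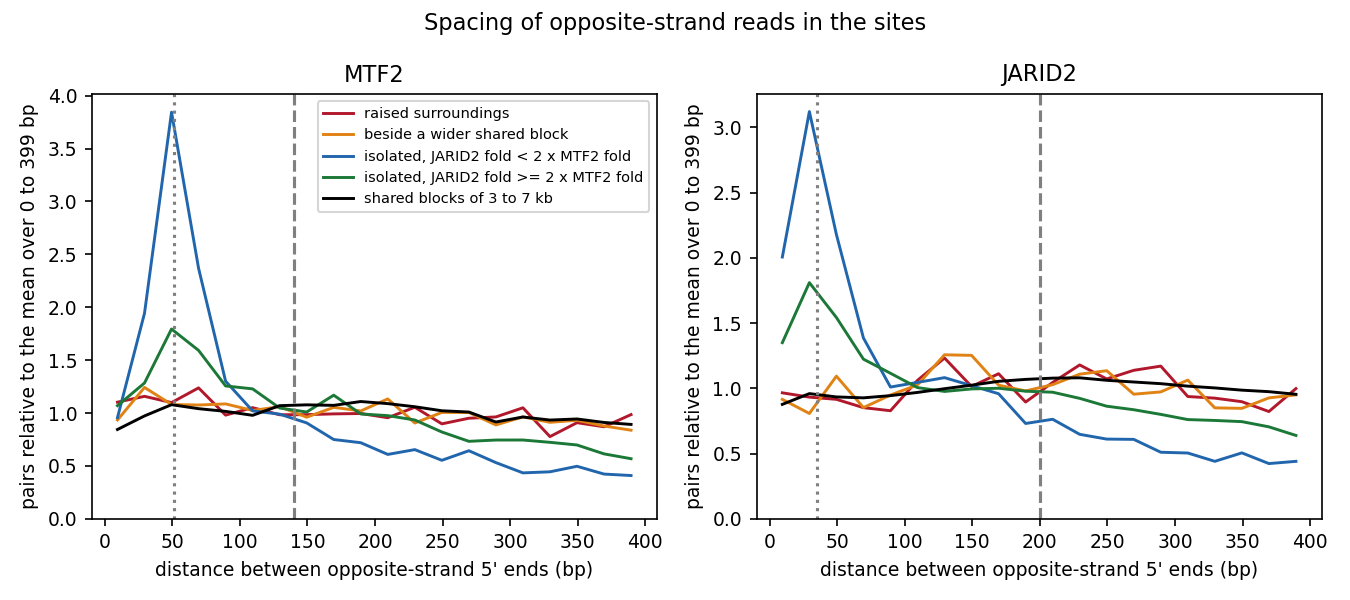
Number of pairs of opposite-strand 5′ ends at each spacing (x axis, bp), relative to the mean over all spacings plotted (y axis), summed over the sites of each setting and over the shared blocks of 3 to 7 kb (black), with MTF2 on the left and JARID2 on the right; the dotted line marks the read length and the dashed line the fragment length. Isolated sites with a JARID2 fold under 2 times the MTF2 fold have their highest point at 50 bp in MTF2 and 34 bp in JARID2, next to the read length.

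This spacing went with the balance of the factors and with the repeat level. At the 58 low-ratio isolated sites the pairs at the read length were 3.81 times the mean over spacings in MTF2 and 3.23 times in JARID2, against 0.986 and 0.708 at the fragment length. In either library 46 of 54 sites (85.2%, 72.9% to 93.4%) had more pairs at the read length. The 95 high-ratio isolated sites held both forms. At 41 of them 20% or more of the file lines in either library repeated a kept read, and of these 36 of 40 (MTF2) and 36 of 41 (JARID2) favoured the read length. At the other 54, under 20% repeat lines in both libraries, it was 21 of 48 (43.8%, 29.5% to 58.8%) for MTF2 and 3 of 54 (5.56%, 1.16% to 15.4%) for JARID2, with the most pairs at 171 bp and 215 bp. Those 54 sites thus had a spacing near that of the wide shared blocks, where the most pairs were at 156 bp and 231 bp. It was also near that of the narrow JARID2 blocks without MTF2, at 157 bp and 193 bp. The limit of 20% was set after the data were seen, and the part of repeat lines in the spacing was not tested. At the 30 low-ratio isolated sites under 20% repeat lines, 20 of 27 (MTF2) and 19 of 26 (JARID2) still favoured the read length.

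Counted site by site, 85 of the 211 (40.3%, 33.6% to 47.2%) had more pairs at the read length in both libraries and 42 (19.9%, 14.7% to 25.9%) had more at the fragment length in both. All 8 sites with the highest MTF2 fold were among the 85. The site on chromosome 10 had 2019 MTF2 pairs at the read length and 1438 at the fragment length, and 663 and 367 JARID2 pairs. The 85 had a median MTF2 fold of 7.58 and the 42 of 4.81, with JARID2 folds of 14.1 and 22.0. Sites high in MTF2 were therefore mostly sites with the read-length spacing. JARID2 lines per kept read reached 1.5 at 43 sites (20.4%) and MTF2 lines at 12 (5.69%), none of them in raised surroundings or beside a wider block. The narrow JARID2 blocks without MTF2 reached it at 0.579% and 2.73%, and the shared blocks of 3 to 7 kb at 1.67% and 0%.

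Within the sites, the highest MTF2 and JARID2 windows of 200 bp lay a median of 283 bp apart (200 to 350), and 159 sites (75.4%, 69.0% to 81.0%) had them within 500 bp. The narrow JARID2 blocks without MTF2 were much alike in this, at 325 bp and 73.4% (72.8% to 74.0%). The distance is bounded by the width, with medians of 150 bp at sites of 1 kb and 400 bp at sites of 2 kb. The low-ratio isolated sites, 46 of 58 of them 1 kb wide, had a median of 100 bp (50 to 175), and the high-ratio isolated sites, 32 of 95 of them 1 kb wide, had 300 bp. Among the latter it was 400 bp at the 54 with few repeat lines, of which 10 were 1 kb wide, and 125 bp at the 41 others, of which 22 were. The part of width in these differences was not tested.

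Aligned on the highest JARID2 window, the MTF2 reads took different shapes. At the low-ratio isolated sites the median MTF2 level was 18.99-fold in that window, 4.28-fold and 4.63-fold in the windows 200 bp to either side and 1.51-fold and 1.46-fold at 600 bp. At the 54 high-ratio sites with few repeat lines MTF2 had a hollow instead. Its median was 1.56-fold at the highest JARID2 window, 2.91-fold and 3.20-fold at 200 bp, and 4.38-fold and 4.47-fold at 400 bp, while JARID2 went from 79.2-fold at the window to 12.9-fold and 20.3-fold at 400 bp. A single MTF2 read in such a window is about 1.47-fold, so a median of 1.56-fold means about 1 read per site and the summed reads are the firmer measure. At the sites in raised surroundings MTF2 was level, at 5.97-fold in the window and 7.21-fold and 5.77-fold at 400 bp.

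**Figure D4:**
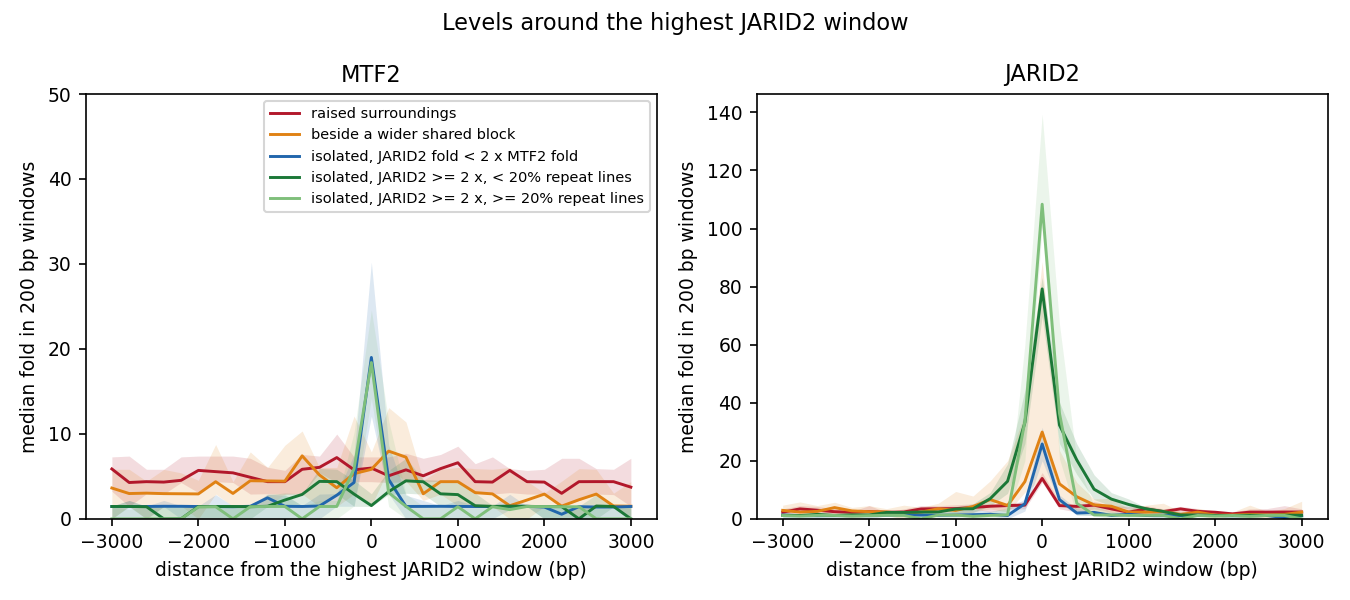
Median MTF2 and JARID2 fold (y axes) in windows of 200 bp at each distance (x axis, bp) from the highest JARID2 window, for sites of each setting, with MTF2 on the left, JARID2 on the right and 95% order-statistic intervals as bands. MTF2 of the 54 high-ratio isolated sites with under 20% repeat lines dips to 1.56-fold at distance 0 and is 4.38-fold and 4.47-fold at 400 bp, whereas MTF2 of the low-ratio isolated sites peaks there at 18.99-fold.

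Summed over those 54 sites, the MTF2 reads were at 2.96-fold (2.43 to 3.58, 109 reads) in the highest JARID2 window and at 5.003-fold (4.65 to 5.38, 736 reads) 400 to 600 bp away. The ratio was 0.592 (0.480 to 0.725), and the window was lower at 42 of the 54 sites and higher at 10. The window was chosen on JARID2, which was 74.7-fold in it and 17.3-fold away from it. The MTF2 reads in the sites entered the rule and the split, so this ratio describes the 54 sites. Over all 19635 narrow JARID2 blocks under 20% repeat lines, taken with or without MTF2, the ratio was 0.502 (0.489 to 0.516), and over the 1059 of them at a JARID2 fold of 20 or more it was 0.494 (0.455 to 0.536). The levels behind these ratios were far lower than at the 54 sites. MTF2 was at 0.438-fold in the window and 0.873-fold away over the 19635 blocks, both below the typical bin. Over the 1059 it was at 0.897-fold and 1.82-fold. Shared blocks of 8 kb or more had a ratio of 0.699 (0.651 to 0.750), lower at 197 of 289. Shared blocks of 3 to 7 kb had 0.904 (0.858 to 0.952), and 0.720 (0.671 to 0.771) under 20% repeat lines. In raised surroundings the ratio was 0.925 (0.783 to 1.09), an interval that includes equal levels. MTF2 was thus lower beneath the JARID2 summit than beside it at the 54 sites, in those wider blocks and in narrow blocks taken without regard to MTF2. The ratio of the 54 sites moved with the read shift and the threshold, to 0.852 without the shift and 0.827 at a fold of 8, and was below 1 under each of the 14 alternatives. At the 41 high-ratio isolated sites with more repeat lines it was 6.33 (5.58 to 7.20), with MTF2 lower in the window at 8. Over all 95 high-ratio isolated sites it was therefore 2.61 (2.37 to 2.86), and over all 211 sites 3.40 (3.21 to 3.59), with MTF2 higher in the window at 117 and lower at 90. The hollow was seen at the high-ratio isolated sites with few repeat lines and not over the sites as a whole.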

How the data were processed

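The authors deposited aligned reads, 1 line per read, for 1 MTF2 library (10986401 lines of 52 bp) and 1 JARID2 library (14465269 lines of 36 bp). Per the labels' protocols, libraries had 15 PCR cycles. The aligner and the genome build are not given in the sources at hand, nor is the meaning of the deposited score column, which served for 1 alternative only. Lines that repeat a chromosome, strand and 5′ end were dropped, which kept 81.4% and 89.2%. Reads were moved downstream by 70 bp (MTF2) or 100 bp (JARID2) and counted in 1 kb bins. The fold of a bin is its count over the mean of the chromosome's bins, with a read in either library, up to the 99th percentile. Analysis used Python 3.11.15, NumPy 2.4.6, SciPy 1.17.1 and pandas 2.3.3. Intervals are at 95% and cover counting error or spread over sites only, since PCR reads are not independent molecules. Neighbouring sites of the same chain are not independent either, which the intervals over sites leave out.

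The sites and lists were chosen with earlier results of these data known. The settings, the limit of 20% repeat lines and the pair and window measures were set after the data were seen, as was the set of narrow blocks taken with or without MTF2. Named sites are the 8 highest MTF2 and the 8 highest JARID2 folds, the 4 highest and 4 lowest ratios, the 3 either side of the MTF2 threshold and the 3 closest together, at most 1 per 100 kb except the last; the sites printed beside wider shared blocks were chosen after their values were seen. The bin rule was tried on simulated Poisson counts, even along each chromosome apart from single planted bins at a JARID2 fold of 12. It found 81.1% of the bins planted at an MTF2 fold of 6, 97.9% at 8 and 0 sites elsewhere. The simulation had no raised stretches and no repeat lines, so it says nothing about sites with either. Genes, annotation and sequence were not analysed here: the gene table is of the assembly GRCm38.p6, whose genes run past the highest read on 11 of 20 chromosomes.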

Additional observations from a re-analysis of the deposited data

Results flagged for a closer look

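Chromosome X lay outside the autosomes from which the sites were taken, and it held blocks that met the same rule. There 41 of 1528 narrow JARID2 blocks held an MTF2 bin at a fold of 5 or more, or 2.68% (1.93% to 3.62%). On the autosomes the share was 0.968%. A count of 0 would allow up to 0.196%, which is not a background share. No control sample was at hand to compare. The 41 blocks of chromosome X had median folds of 7.59 for MTF2 and 8.09 for JARID2. A typical bin of chromosome X held 2.24 MTF2 and 2.10 JARID2 reads, below the autosomal medians of 3.39 and 4.25, so fewer reads reach a fold of 5 there. The part of this lower count in the share of shared blocks was not tested.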

How the results depend on the processing

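Each of 15 results was recomputed under 14 alternatives, with 1 choice changed at a time. Judged by the interval of the value reported, 146 values stayed and 64 moved. The number of sites has no interval and was judged by a set factor instead. Changes of direction were not scored. The share of sites with more JARID2 pairs at the read length went from a majority, 54.4%, to a minority, 35.6% under 20% repeat lines. Of the folds of named sites under these alternatives, 690 stayed and 66 moved. A limit of 20% repeat lines, or under 20% of lines repeating a kept read, was added after the data were seen, as were the results on surroundings, spacing and the MTF2 hollow. The cause of a move was not tested except where the alternative's construction gives it. No paired analysis was possible because each factor has 1 library, and no library could be left out for the same reason. Depth limits single sites: at about 17 MTF2 reads, a fold of 5 has an interval from 2.93 to 8.04.

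The 211 sites became 322 at a fold of 4 and 92 at a fold of 8, of which the former overlapped 142 of the 211 and the latter 52. They became 338 with 500 bp bins (131 overlapped) and 337 with MTF2 reads of a score above 0 (199 overlapped). The lowest other overlap was 116, with a local background. Sites as a share of narrow blocks were 1.14% at a fold of 4, 0.695% at 8, 1.28% with a local background, 2.24% with 500 bp bins, 1.20% without merged gaps, 1.56% with a score above 0, 1.12% without the repeat filter, 0.789% at a repeat level under 1.5 and 0.723% under 20% repeat lines. The median MTF2 fold was 4.76 at a fold of 4, 9.63 at 8, 4.22 with 500 bp bins and 5.42 under 20% repeat lines. The median JARID2 fold was 10.04 and 22.4 at folds of 4 and 8, 9.69 without merged gaps, and 10.5 and 9.27 at a repeat level under 1.5 and under 20% repeat lines. The median depth-scaled ratio was 3.44 with a local background, 3.45 with 500 bp bins and 1.28 without merged gaps. The MTF2 level 1 to 5 kb away was 1.26 with a local background, 1.24 with 500 bp bins, 1.93 without merged gaps, and 1.86 and 2.38 at a repeat level under 1.5 and under 20% repeat lines.

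The share at the MTF2 threshold on each strand was 48.7% with a score above 0. The median distance of the highest windows was 175 bp at a fold of 8, 375 bp with 500 bp bins and 375 bp under 20% repeat lines. The share within 500 bp was 81.7% with the grid moved by 500 bp, 67.8% with 500 bp bins, and 68.7% and 66.9% at a repeat level under 1.5 and under 20% repeat lines. The share within 10 kb of a wider shared block was 24.5% at a fold of 4, 11.6% with a local background, 29.4% without merged gaps and 23.9% under 20% repeat lines. The distance to the nearest other site was 1178 kb and 6539 kb at folds of 4 and 8, 623.5 kb without merged gaps, 1211 kb with a score above 0 and 753 kb under 20% repeat lines. Raised surroundings were at 1.78% with a local background, 13.0% with 500 bp bins, 31.5% without merged gaps and 28.2% under 20% repeat lines.

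The share of sites with more MTF2 pairs at the read length was 76.1% at a fold of 8, and 57.7% and 52.8% at a repeat level under 1.5 and under 20% repeat lines. For JARID2 it was 63.3% at a fold of 8, 41.0% with a local background, 37.9% with 500 bp bins, 45.3% with a score above 0, and 41.5% and 35.6% at a repeat level under 1.5 and under 20% repeat lines. The MTF2 level at the highest JARID2 window over that 400 to 600 bp away, 0.592, was 0.852 without the shift, 0.827 at a fold of 8, 0.760 with the 90th percentile and 0.745 with the moved grid.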
